A study of Mus musculus with 2 samples.

Results

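The core of the mammalian circadian clock was followed here through 10 genes. They are the Period genes Per1, Per2 and Per3, the cryptochromes Cry1 and Cry2, the activators Clock, Npas2 and Arntl, and the repressors Bhlhe40 and Bhlhe41. They were chosen by gene symbol, each symbol stood on a single row of the deposited table, and all 10 of 10 were found among 26490 rows left after rows sharing a symbol had been reduced to the one with the higher mean. The series holds 2 libraries of poly(A)-selected RNA from cultured primary microglia, the macrophages that reside in brain and spinal cord. According to their labels, 1 culture received a control vector and the other a Per2-overexpression vector, and each label has 1 library. The organism is labelled mouse, while the genome build and every annotated gene identifier are rat. The sources used here do not give the strain, age, time after transfection, promoter of the vector or species of its Per2 insert.

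In the clock, the proteins CLOCK and BMAL1 (the product of Arntl) bind E-box DNA together and switch on the Period and cryptochrome genes. PER and CRY proteins accumulate, enter the nucleus as a complex and repress CLOCK-BMAL1, which closes a feedback loop of about a day. NPAS2 can take the place of CLOCK, and the proteins made from Bhlhe40 and Bhlhe41 (DEC1 and DEC2) bind E-boxes as repressors. In macrophages and microglia this loop is known to set a daily rhythm in the response to inflammatory stimuli. A single harvest of each culture gives no rhythm, so the values below are levels at clock times that are not recorded.

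All values are FPKM, that is, fragments counted on a transcript per kilobase of its length and scaled by the number mapped in the library, so levels of different genes can be set side by side. The log2 ratio is the log2 of (FPKM + 1) in the library labelled Per2 overexpression over (FPKM + 1) in the library labelled control, and the added 1 understates the difference of low genes. A log2 ratio of -1 or lower, or 1 or higher (2-fold), was counted as lower or higher, and genes whose mean over both libraries reached 1 FPKM were compared. With 1 library per label there is no replicate error and no test, and the values describe these 2 libraries.

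The libraries differed as a whole in ways that bear on each ratio below. Of 12318 genes compared, 725 (5.89%) were 2-fold or more lower in the library labelled Per2 overexpression and 267 (2.17%) higher, and their median log2 ratio was -0.18. Rows without a named gene (4587 of the 26490 kept) were not excluded from the counts over all genes. The split depended on the scaling. After rescaling to TPM, 1497 of 13159 genes were lower and 209 higher (median -0.38). After median-of-ratios centring, 483 of 12312 were lower and 487 higher (median -0.02). The minimum mean was applied again after each rescaling, so the genes compared also changed. Long transcripts had lower ratios than short ones (Spearman's rho of -0.50 across 10108 genes with a length, which are not independent replicates). Among macrophage markers, Aif1 (579 against 491 FPKM, with the value of the library labelled control given first in all such pairs), Cd68 (923 against 774) and Tyrobp (1076 against 1364) were abundant. The microglial receptor gene P2ry12 was near 0 (0.650 against 0.0802 FPKM), and both libraries list Cx3cr1 at 0, so the markers at a high level are ones that macrophages in general share.

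Per2 went against the label. Per2 (ENSRNOG00000020254) had 6.90 FPKM under the control label and 0.927 FPKM under the overexpression label, a log2 ratio of -2.04 and a 7.44-fold difference of the deposited values. Among the genes compared, Per2 was at percentile 40.4 of the control-labelled library and at percentile 4.41 of the other. The libraries are therefore named by their labels throughout, and no direction below refers to a measured gain of Per2 transcript. The table does not settle whether its columns were exchanged relative to the labels, or whether transcript from the vector insert was counted on this gene, and either would change what the directions and shares below mean.

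Genes of similar level and transcript length were used as the yardstick for each core gene, because the libraries differed with length. For Per2, 1235 genes differed from it by at most 0.5 in log2 length and at most 1 in log2 mean FPKM, and their median log2 ratio was -0.44. Of these, 5 (0.405%) were as low as Per2, whose log2 ratio minus their median was -1.59. The genes most like it, in order, were Dpysl2 (12.4 against 1.82 FPKM), Abl1 (6.37 against 0.603), Sema3d (6.04 against 0.612), Phldb2 (5.44 against 0.508) and Antxr2 (8.23 against 1.22). Stab1 (4.39 against 0.388 FPKM, log2 ratio -1.96) came next, just above Per2. Likeness here means only the log2 ratio among length and level matches, over 2 libraries.

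The other Period genes did not share the ratio of Per2. Per1 (ENSRNOG00000007387), whose protein represses CLOCK-BMAL1 together with PER2, had 4.42 FPKM under the control label and 3.31 under the overexpression label, a log2 ratio of -0.33. Of 1507 genes of similar length and level, 879 (58.3%) had a ratio as low, and Per1 kept its place among all genes (percentile 28.8 against 28.3). Per3 (ENSRNOG00000018413), the Period gene least needed for rhythms in mice, had 0.826 against 0.377 FPKM. Its mean was under 1 FPKM, so it was not among the genes compared, and its log2 ratio of -0.41 lay near the median of its 531 matches (-0.33). The deposited values of Per3 differed 2.19-fold, and at this level the added 1 brings its log2 ratio and those of its matches towards 0. Per2 was thus the most abundant Period transcript in the control-labelled library, at 1.56 times Per1, and stood at 0.280 times Per1 in the library labelled Per2 overexpression. A ratio of 2 genes within a library is not moved by how the library was scaled.

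**Figure D1:**
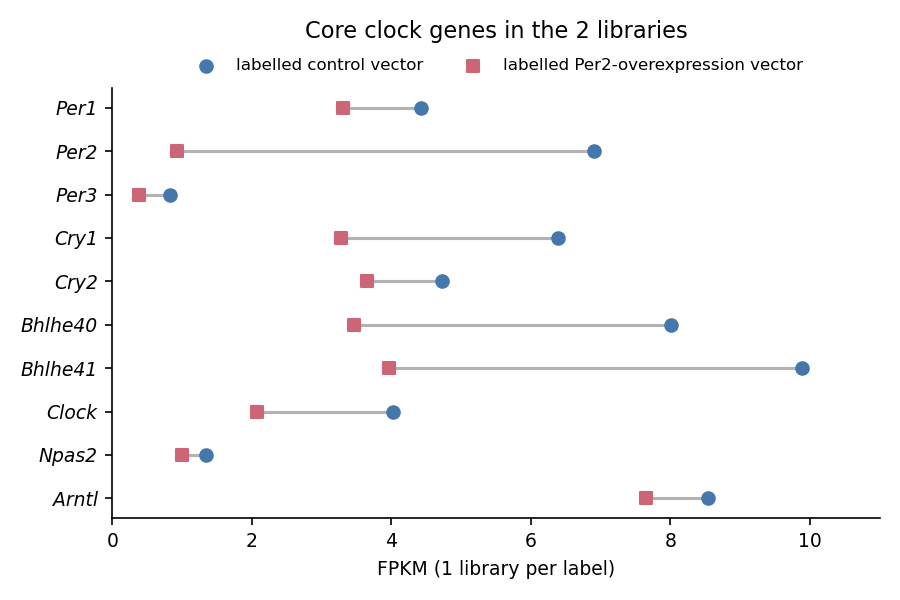
FPKM of the 10 core clock genes (rows) in the library labelled control vector (circles) and the library labelled Per2-overexpression vector (squares), with 1 library per label and no error bars. Every gene has the lower value in the Per2-labelled library, with the widest gap in ratio for Per2 (6.90 against 0.927) and a narrow one for Arntl (8.54 against 7.65).

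The cryptochromes differed from each other. Cry1 (ENSRNOG00000006622), a strong repressor of CLOCK-BMAL1, had 6.39 against 3.28 FPKM, a log2 ratio of -0.79 that did not reach 2-fold. Of its 1458 matches, 188 (12.9%) were as low. Cry2 (ENSRNOG00000007478), which acts beside Cry1 and opposes it in setting the period in mice, had 4.73 against 3.65 FPKM (log2 ratio -0.30). For Cry2, 943 of 1616 matches (58.4%) were as low, and its percentile among all genes was 30.5 against 30.8. Cry1 exceeded Cry2 in the control-labelled library (ratio 1.35) and was slightly below it in the other (0.898).

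Bhlhe40 and Bhlhe41 were the other core genes past 2-fold. Bhlhe41 (ENSRNOG00000048961) was the most abundant core transcript of the control-labelled library, with 9.89 FPKM against 3.97 (log2 ratio -1.13). Bhlhe40 (ENSRNOG00000007152) had 8.01 against 3.47 FPKM, a log2 ratio of -1.01 that lies at the edge of the 2-fold rule. Neither call held with a pseudocount of 5 (Bhlhe41 -0.73, Bhlhe40 -0.62), with median-of-ratios centring (-0.97 and -0.85) or with the length trend removed (-0.69 and -0.76). Relative to genes of similar length and level, 73 of 1060 (6.89%) were as low as Bhlhe41 and 104 of 1575 (6.60%) as low as Bhlhe40. The pair kept nearly the same proportion to each other, with 1.23 times as much Bhlhe41 as Bhlhe40 under the control label and 1.14 times under the overexpression label.

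Among the activators, Clock had the lowest ratio, and those of Arntl and Npas2 were nearer to 0. Arntl (ENSRNOG00000014448), whose product is a partner of CLOCK and NPAS2, had 8.54 FPKM against 7.65, a log2 ratio of -0.14. Its percentile among all genes was 46.0 against 48.2, and 1109 of 1699 matches (65.3%) were as low. Clock (ENSRNOG00000002175) had 4.03 against 2.07 FPKM, a log2 ratio of -0.71, and 90 of 353 matches (25.5%) were as low. Npas2 (ENSRNOG00000013408), the paralogue of Clock, was low in both libraries, with 1.34 against 1.00 FPKM (log2 ratio -0.22), and 612 of 919 matches (66.6%) were as low. Arntl exceeded Clock 2.12 times under the control label and 3.69 times under the overexpression label. Clock has a much longer transcript than Arntl (9744 against 2976 nt in mouse), and the general trend at these lengths was -0.47 and -0.23 on the log2 scale.

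Counted together, 3 of 9 core genes compared were at least 2-fold lower (Per2, Bhlhe40 and Bhlhe41), beside 5.89% of all genes, and 0 were at least 2-fold higher, beside 2.17%. All 9 had a log2 ratio below 0, as did 64.2% of all genes, and the median of the 9 was -0.71 against -0.18 for all genes. Of the 10 core genes, 8 have a mouse transcript longer than the median of the genes compared (3027 nt). With the trend with length removed, 1 of 9 core genes was at least 2-fold lower (Per2, at -1.60), beside 2.37% of genes with a length, and 0 were higher, beside 1.31%. Below 0 then lay 5 of the 9, beside 50.7% of genes with a length. The ratios of Bhlhe40 (-0.76), Bhlhe41 (-0.69), Cry1 (-0.55) and Clock (-0.24) then remained below 0, while Per1 (0.061), Cry2 (0.047), Arntl (0.091) and Npas2 (0.14) were slightly above it. The median of the core genes was then -0.24, against -0.01 for genes with a length.

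**Figure D2:**
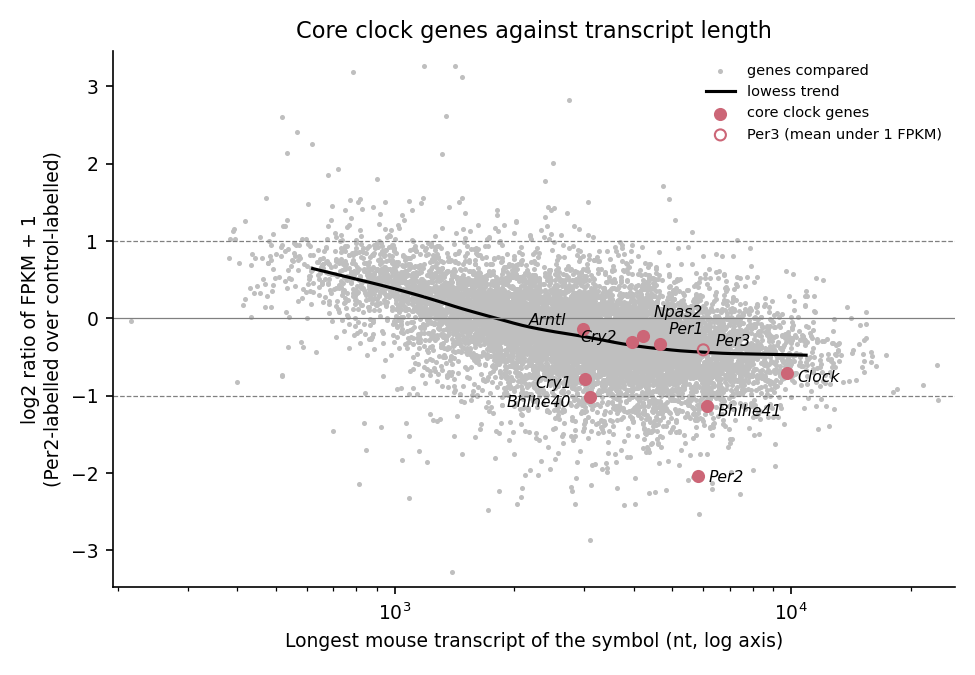
Log2 ratio of FPKM + 1 (library labelled Per2 overexpression over library labelled control) against the longest mouse transcript of the symbol in nt on a log axis, with genes compared in grey, the lowess trend in black and the core clock genes in red (Per3, under 1 FPKM, open). Dashed lines mark 2-fold. Per2 at -2.04 lies far below the trend, Bhlhe40, Bhlhe41 and Cry1 lie moderately below it, and Per1, Cry2, Arntl and Npas2 lie on it or just above.

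The make-up of the core clock transcripts differed between the libraries. The 10 genes summed to 55.1 FPKM under the control label and to 29.7 under the overexpression label. Period genes made up 22.1% of that sum under the control label and 15.5% under the overexpression label, and Bhlhe40 with Bhlhe41 made up 32.5% against 25.045%. The cryptochromes had 20.2% against 23.3%, and the activators Clock, Npas2 and Arntl had 25.3% against 36.1%. Arntl alone held 15.5% against 25.8%, the second and the first place in the order of levels, and Per2 held 12.5% (the fourth place) against 3.12% (the ninth). Neighbours in these orders cannot be told apart, since there is no spread to set them against. The shares, and the ratios of sums below, were not corrected for transcript length. The general trend was -0.23 at the length of Arntl and -0.43 at that of Per2 on the log2 scale.

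Summed PER and CRY transcripts were 1.67 times the summed activators under the control label and 1.08 times under the overexpression label. Without Per2 these ratios were 1.18 and 0.989. The log2 of the second ratio over the first was -0.64 with Per2 and -0.25 without it. Bhlhe40 and Bhlhe41 together were 1.29 times the activators under the control label and 0.694 times under the overexpression label.

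**Figure D3:**
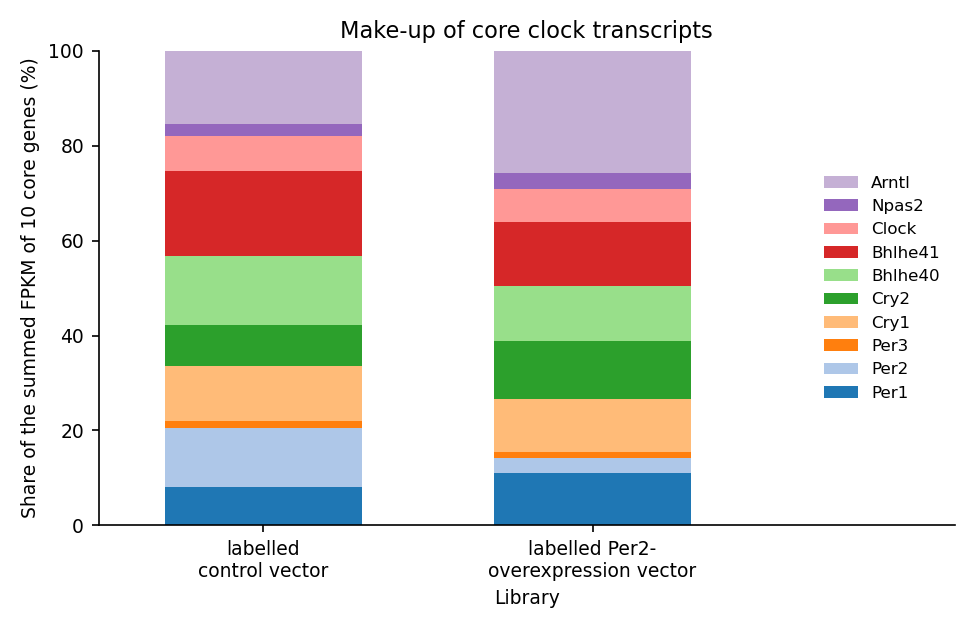
Share of the summed FPKM of the 10 core clock genes (%) held by each gene in the library labelled control vector (left) and the library labelled Per2-overexpression vector (right). The share of Arntl is 15.5% on the left and 25.8% on the right, and that of Per2 is 12.5% and 3.12%.

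Promoter sequence was examined for the letters through which clock factors are known to act. RefSeq windows (mouse GRCm38.p6, 250 bases before to 50 after a start site) matched 8 of the 10 core genes by symbol, all but Per2 and Bhlhe40, with 12 windows in all. They stand for the labelled organism, not for the rat build of the table. The E-box CACGTG, the site of CLOCK-BMAL1 and of the DEC repressors, was in 1 of the 2 windows of Per1. It was also in the 1 window each of Cry1 and Bhlhe41. Of all 32851 windows, 7.15% held it. This is a share of windows, not of genes, and a gene with several windows has more places to hold it. Each is shown 5′ to 3′ on the strand of the gene with the E-box in capitals, because the ratios of these E-box genes ranged from near the median of their matches (Per1) to past 2-fold (Bhlhe41).
Per1 E-box, chr11:69098772-69098799, plus strand: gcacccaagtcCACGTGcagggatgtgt
Cry1 E-box, chr10:85185098-85185125, minus strand: gtgccggtggtCACGTGgggtgcatgcc
Bhlhe41 E-box, chr6:145865557-145865584, minus strand: ggtacgttccgCACGTGagctgggtgct

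These E-boxes began at position -166 (Per1), -60 (Cry1) and -153 (Bhlhe41) from the start site. The log2 ratios of the 3 genes were -0.33, -0.79 and -1.13. The D-box letters TTATGNAA are bound by DBP, TEF and HLF as activators and by NFIL3 as a repressor. They were in 1 of the 2 windows of Per1, in the 1 window of Per3 and in 3.38% of all windows (both strands searched). The letters TAGGTCA, bound by ROR activators and REV-ERB repressors, were in 1 of the 2 windows of Arntl and in 2.61% of all windows. The D-box and ROR/REV-ERB letters are in capitals below, because the genes of the factors that bind them are described next.
Per1 D-box, chr11:69098914-69098943, plus strand: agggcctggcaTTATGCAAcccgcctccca
Per3 D-box, chr4:151044852-151044881, minus strand: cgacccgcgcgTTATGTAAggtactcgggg
Per3 second D-box, chr4:151044805-151044834, minus strand: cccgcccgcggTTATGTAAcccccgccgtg
Arntl ROR and REV-ERB element, chr7:113207530-113207558, plus strand: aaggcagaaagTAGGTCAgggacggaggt

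Genes of the second loop and the outputs had ratios on both sides of 0. Of 11 listed genes, 9 were compared, and their median log2 ratio was -0.09. Among the 9, 0 were 2-fold lower and 0 2-fold higher, beside 5.89% and 2.17% of all genes. Nr1d1, which encodes the repressor REV-ERB alpha, had 6.93 FPKM against 4.27 (log2 ratio -0.59). Cipc, an inhibitor of CLOCK, had 6.52 against 4.85 (-0.36). Rora, which encodes an activator of Arntl, had 1.36 against 2.01 (0.35), and Dbp, a direct E-box target, had 20.4 against 26.2 (0.35). With the length trend removed, 6 of the 9 lay above 0 and 3 below, beside 50.7% of genes with a length below 0. The median of the 9 was then 0.23, against -0.24 for the core genes.

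Genes that act on the stability of PER and CRY proteins came next. Of 14 compared among 16 listed, 12 were below 0 and 2 above, beside 64.2% of all genes below 0. At least 2-fold lower was 1 of the 14, beside 5.89% of all genes, 0 were higher, beside 2.17%, and the median was -0.38. The lower gene was Usp7, a deubiquitinase that acts on cryptochromes, with 14.2 FPKM against 5.29 (log2 ratio -1.28, and -0.88 with the length trend removed). Csnk2a1, a catalytic subunit of casein kinase, had 18.8 against 10.9 FPKM, Csnk1a1, a casein kinase that phosphorylates PER, had 103 against 63.6, and Timeless had 2.04 against 0.957. With the length trend removed the list median was -0.14, and 10 of the 14 lay below 0, beside 50.7% of genes with a length. Past 2-fold were then 0, beside 2.37% lower and 1.31% higher.

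Co-regulators of CLOCK-BMAL1 and of the PER complex had a median of -0.64, the lowest of the 4 clock-related lists set beside the core genes. Of 16 found in the table among 19 listed, 14 were compared and 12 lay below 0 (64.2% of all genes did). At least 2-fold lower was 1 of the 14, beside 5.89% of all genes. This gene was Dhx9, an RNA helicase found in PER complexes, with 10.7 FPKM against 2.81 (log2 ratio -1.61, and -1.22 with the length trend removed). Sfpq, an RNA-binding partner of PER, had 47.9 against 27.5, and Kdm5a, a histone demethylase that binds CLOCK-BMAL1, had 5.34 against 2.79. With the length trend removed the median was -0.30, and 11 of the 14 lay below 0, beside 50.7% of genes with a length. At least 2-fold lower was then 1 of the 14, beside 2.37%.

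Relatives of CLOCK and BMAL1 beyond the core genes, which share the bHLH-PAS fold, gave a further yardstick. Of 15 found in the table, 8 were compared and all 8 lay below 0, beside 64.2% of all genes. Past 2-fold were 0 of the 8, beside 5.89% of all genes lower and 2.17% higher, and their median was -0.41. Ncoa3, a nuclear receptor coactivator, had 2.53 FPKM against 0.872 (log2 ratio -0.91), and Hif1a, the oxygen-sensing factor, had 56.2 against 30.9 (-0.84). Ahrr, a repressor of the aryl hydrocarbon receptor, had 2.48 against 1.495, and Arnt, the common partner of this family, had 8.32 against 5.98. The median of the 8 was -0.01 with the length trend removed. Then 4 lay on each side of 0, beside 50.7% of genes with a length below 0.

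**Figure D4:**
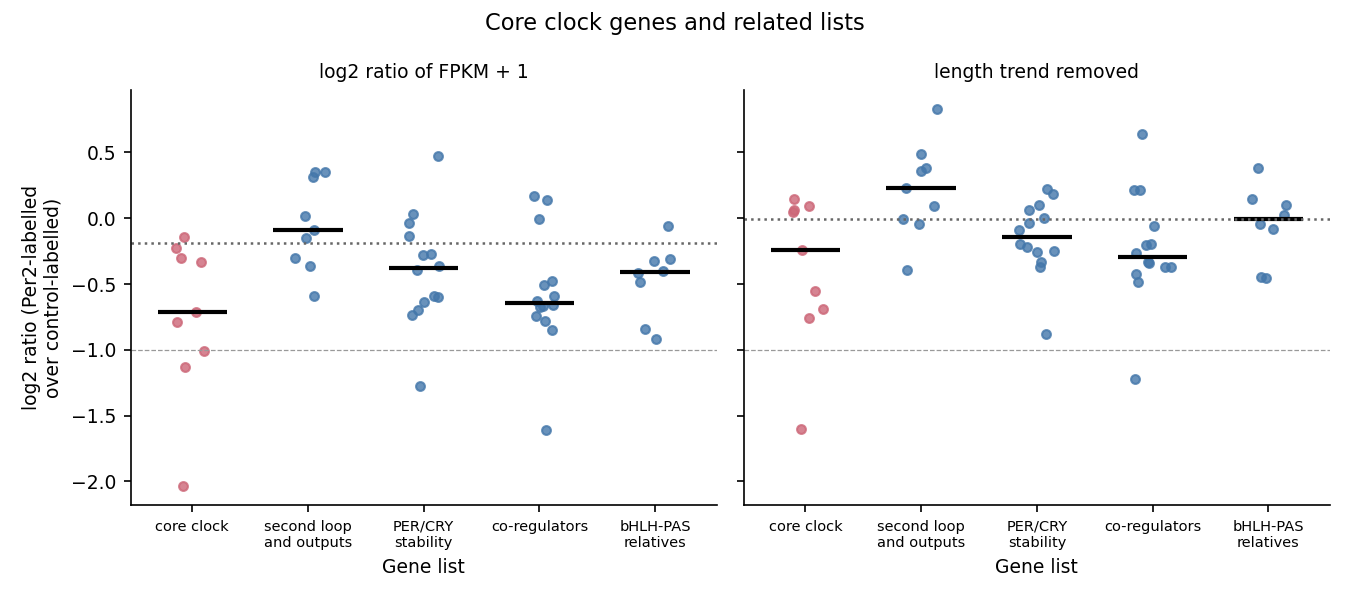
Log2 ratios (library labelled Per2 overexpression over library labelled control) of core clock genes (red) and of 4 related lists (blue), as FPKM + 1 on the left and with the trend with transcript length removed on the right; each point is a gene, black bars are list medians, the dotted line is the median of all genes and the dashed line marks 2-fold lower. The core median is -0.71 on the left and -0.24 on the right, and that of the second loop and outputs is -0.09 and 0.23.

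Markers of the cells in the cultures also differed between the libraries, and their counts stand beside the 5.89% of all genes that were at least 2-fold lower (2.37% with the length trend removed). Of 15 microglia and macrophage markers compared, 5 were at least 2-fold lower and 0 higher, with a median log2 ratio of -0.77. The list summed to 3634 against 3203 FPKM, with Cx3cr1 at 0 in both. Of 10 astrocyte markers compared, 5 were at least 2-fold lower and 0 higher (median -0.96), the list summed to 439 FPKM against 198, and no marker (0) was at 0. Of 7 oligodendrocyte lineage markers compared, 3 were at least 2-fold lower (median -0.91, sum 74.8 against 58.3 FPKM). Fibroblast and pericyte markers had 0 of 7 past 2-fold (median -0.23, sum 947 against 786), with Rgs5 at 0 in the library labelled Per2 overexpression. Among neuron markers 4 were compared and 0 were past 2-fold (sum 41.3 against 27.8), with Rbfox3 and Slc17a7 at 0 in both libraries. Among endothelial markers 3 were compared and 0 were past 2-fold (sum 60.2 against 63.5), with Cldn5 at 0 in both. With the length trend removed, 4 microglia and macrophage, 2 astrocyte and 1 oligodendrocyte lineage markers were at least 2-fold lower. In bulk RNA the number of cells of a type, the RNA per cell and the level of a single gene within cells cannot be told apart. The part of these differences in the values of the core clock genes was not tested.

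**Figure D5:**
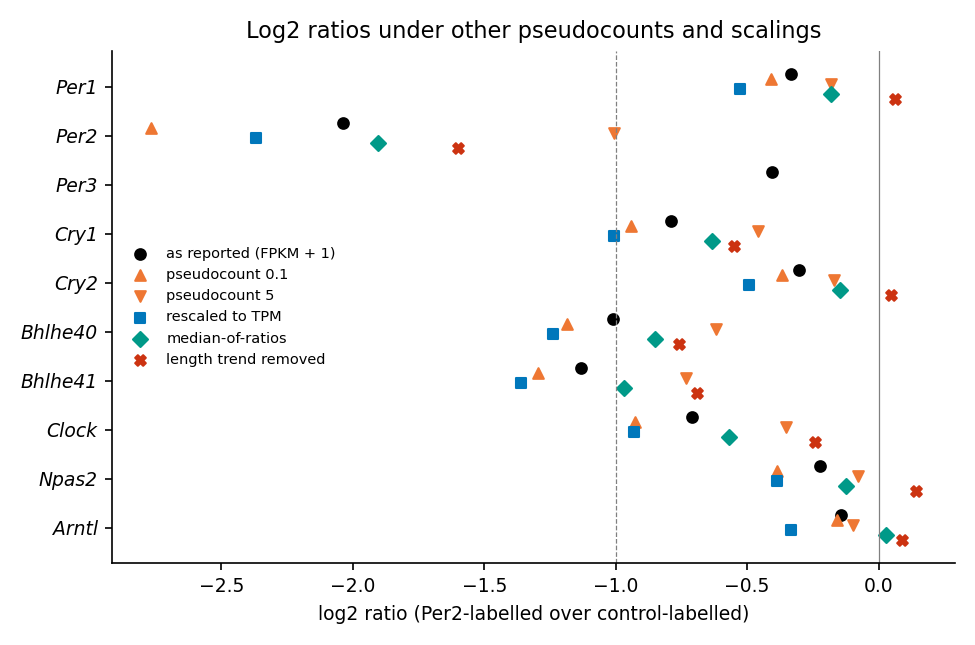
Log2 ratios of the 10 core clock genes (library labelled Per2 overexpression over library labelled control) as reported and under other pseudocounts, scalings and the length correction; Per3, under 1 FPKM, is given only as reported. The dashed line marks 2-fold lower. Per2 lies past it under each setting drawn, while Bhlhe40 and Bhlhe41 lie on either side of it, and Per1, Cry2, Npas2 and Arntl lie between -0.53 (Per1 after TPM rescaling) and 0.14 (Npas2 with the length trend removed).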

How the data were processed

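Poly(A) RNA was fragmented, primed with random hexamers and sequenced, per the labels' protocols, in which no strand-marking step is named, so overlapping antisense genes cannot be told apart. The authors deposited FPKM values, 1 per gene and library, in 1 table. HISAT2, StringTie, DESeq2, edgeR and the rat build Rnor_6.0 are named, without versions or order, in the submitters' processing notes. Depth is unknown: of 1286 genes with low nonzero values (under 0.3 FPKM in each library), no more than 6 shared 1 ratio between the libraries to 3 decimals. FPKM summed to 658071 (labelled control) and 758118 (labelled overexpression) over the rows kept.

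Columns were assigned by the library names in the labels. Of rows sharing a symbol the higher mean was kept. Log2 ratios used a pseudocount of 1, a minimum mean of 1 FPKM and a 2-fold rule, with no test. Lengths were those of the longest protein-coding mouse transcript of the same symbol (GENCODE M21), found for 82.1% of genes compared. The length trend was a lowess fit (statsmodels 0.14.6, span 0.3), whose removal also recentres the ratios. The fit was also run on simulated data with a straight-line trend, little scatter and large changes. That setting is simpler than these data and does not show how well the trend was removed here. The members and gene lists were chosen with earlier results of these data known. Genes named from other lists were those past 2-fold and the 4 with the largest absolute log2 ratio, and up to 6 length and level matches with the lowest ratio were named for Per2. The values of 1 gene taken by this rule are not reported here, although it counts in its list. RefSeq promoter windows (GRCm38.p6) were searched on both strands. Alternatives were pseudocounts of 0.1, 5 and none, a minimum mean of 0 or 5 FPKM, TPM rescaling, median-of-ratios centring, removal of the length trend, summed rows and narrower matching.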

Additional observations from a re-analysis of the deposited data

How the results depend on the processing

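Per2 stayed at least 2-fold lower in the library labelled Per2 overexpression under the 8 alternatives that kept it, with log2 ratios from -2.90 (no pseudocount, an alternative chosen after seeing the data) to -1.01 (pseudocount 5). A filter of 5 FPKM left it out, since its mean was 3.91 FPKM. Of the 8, dropping the filter and summing rows could not move the Per2 ratio (-2.04 in both), so they say nothing on its stability. With matching narrowed to 0.25 of log2 length and 0.5 of log2 level, 4 of 313 genes were as low. Of 9 core genes compared, 3 were at least 2-fold lower as reported, beside 725 of 12318 genes. The count was 1 with a pseudocount of 5 (beside 162 of 12318 genes) and with median-of-ratios centring (483 of 12312). It was also 1 with the length trend removed (240 of 10108). In these settings Bhlhe40 and Bhlhe41 were under 2-fold. The count was 4 of 9 after TPM rescaling (1497 of 13159), when Cry1 reached -1.01. The core median was -1.01 with a filter of 5 FPKM, which leaves 3 core genes (Arntl, Bhlhe40 and Bhlhe41). Directions turned for Arntl with median-of-ratios centring (0.028), and with the length trend removed for Per1 (0.061), Cry2 (0.047), Arntl (0.091) and Npas2 (0.14). Over all genes, 2-fold lower and higher counts were 1292 and 407 of 12318 with a pseudocount of 0.1 and 1356 and 419 of 12296 with none. They were 162 and 119 of 12318 with a pseudocount of 5 and 360 and 179 of 8045 with a filter of 5 FPKM. With the length trend removed they were 240 and 132 of 10108. No paired analysis was possible because each label has 1 library, and for the same reason no library could be left out. Counting precision cannot be given, since the depth is unknown.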

Other observations

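The E-box letters were also set beside the ratios of other genes. Of genes compared that had a transcript length and a RefSeq promoter window, 970 held CACGTG in a window and 7093 did not. Their median log2 ratios were -0.20 and -0.20, and 0.01 and -0.01 with the length trend removed. At least 2-fold lower were 47 of the genes with the letters (4.85%) and 365 of those without (5.15%), and at least 2-fold higher were 3 (0.309%) and 79 (1.11%). These shares are a description of 2 libraries, and the letters in a window do not show that a factor binds there.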
